A study of Mus musculus with 2 samples.

Results

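The genes described here are the class IIa histone deacetylases Hdac4, Hdac5, Hdac7 and Hdac9 and the transcription factors Mef2a, Mef2c and Mef2d that they bind. They were taken by gene symbol and make up 7 of the 32285 genes counted in the hippocampus libraries. Hdac9 was picked because it was lower in AAV-TAU CA1 neurons in these same data, so its values there are a description and carry no test. The other 6 genes were added as its family and its partners.

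The libraries were made by single-nucleus RNA sequencing from the hippocampus of C57BL/6J mice aged 6 weeks. An adeno-associated virus (AAV) had been delivered on the day of birth into the lateral ventricles of both hemispheres. In AAV-TAU mice the vector expressed wild-type human tau (2N4R, full-length), and in AAV-STOP mice it carried a human MAPT transcript that an early stop codon keeps from being translated. Both groups thus carry a vector and a MAPT transcript. Tissue from 3 mice of a group was pooled before sequencing, so each group has 1 value and the spread between mice is unknown. The promoter that drives the vector is not given in the sources used here, and the transgene itself was not analysed here.

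Class IIa deacetylases have weak catalytic activity of their own and act mainly as repressors that dock on Mef2 factors at their target genes and bring in a corepressor complex with Hdac3. Calcium-regulated kinases phosphorylate them, 14-3-3 proteins then bind the phosphorylated sites, and the complex leaves the nucleus, which frees Mef2. In neurons Mef2 factors are activity-dependent regulators of genes that control the number and strength of synapses.

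The AAV-TAU library held 109428807 UMIs (unique molecular identifiers, counted molecules) in 19596 barcodes and the AAV-STOP library 130252240 in 20265 barcodes. After filtering, 17309 AAV-TAU and 17796 AAV-STOP nuclei remained, with medians of 4948 and 5586 UMIs. Their median mitochondrial shares were 0.280% in AAV-TAU and 0.172% in AAV-STOP. Nuclei were clustered and 12 classes named from marker genes held 100 or more nuclei in both libraries. A further 2532 AAV-TAU and 2161 AAV-STOP nuclei lay in clusters that received no name. The libraries shared 116 barcodes, and leaving these nuclei out moved no value of a member beyond its counting interval. Levels are CPM, a gene's UMIs per 1000000 UMIs of its class. Each log2 ratio sets AAV-TAU over AAV-STOP after 5 CPM was added to both levels, and intervals are 95% and cover counting error only. Differences past 1.2-fold on this scale are counted. A gene was called measured where its higher level reached 20 CPM from at least 100 UMIs, which held for 63 pairs of a member and a class.

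Hdac9 (ENSMUSG00000004698) lies on the reverse strand at chr12:34047580-34917095 of GRCm38 and spans 869.5 kb, the longest of the 7 genes. It encodes the class IIa deacetylase known for a short form that keeps the Mef2-binding part and lacks the catalytic part. RefSeq (GRCm38.p6) gives it a promoter at the start of the gene, chr12:34917046-34917345, and another inside it, chr12:34528840-34529139, both on the reverse strand. UMIs at 3' ends do not tell which start a transcript came from. The sequences are shown because Mef2 factors bind AT-rich sites, and 3 of the 7 genes carry letters of that kind next to a start. Each runs from 250 bases before to 50 bases after the start, and capitals mark matches to CTA and TAG with any 4 letters between them or, on either strand, to TATTTTTA. The first of these motifs reads alike on both strands. Both motifs were chosen after the sequences had been read.
Hdac9, first promoter: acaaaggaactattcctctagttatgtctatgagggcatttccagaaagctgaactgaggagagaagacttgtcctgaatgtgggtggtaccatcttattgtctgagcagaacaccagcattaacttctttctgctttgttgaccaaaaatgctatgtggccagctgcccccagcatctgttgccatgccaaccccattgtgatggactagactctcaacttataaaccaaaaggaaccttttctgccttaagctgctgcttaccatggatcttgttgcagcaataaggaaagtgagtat
Hdac9, second promoter: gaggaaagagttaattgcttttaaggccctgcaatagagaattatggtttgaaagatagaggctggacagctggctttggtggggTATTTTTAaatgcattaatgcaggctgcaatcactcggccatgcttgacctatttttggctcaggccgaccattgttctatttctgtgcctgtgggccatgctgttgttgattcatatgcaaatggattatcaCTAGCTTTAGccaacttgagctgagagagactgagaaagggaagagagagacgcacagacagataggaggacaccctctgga
Hdac5, promoter at chr11:102230123-102230422, reverse strand: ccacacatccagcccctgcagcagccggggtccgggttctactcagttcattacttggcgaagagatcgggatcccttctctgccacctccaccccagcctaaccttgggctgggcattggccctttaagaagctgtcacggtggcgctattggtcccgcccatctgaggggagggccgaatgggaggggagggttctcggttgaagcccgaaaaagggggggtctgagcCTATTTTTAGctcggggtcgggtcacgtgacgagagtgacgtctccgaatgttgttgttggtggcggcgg
Mef2a, promoter at chr7:67372809-67373108, reverse strand: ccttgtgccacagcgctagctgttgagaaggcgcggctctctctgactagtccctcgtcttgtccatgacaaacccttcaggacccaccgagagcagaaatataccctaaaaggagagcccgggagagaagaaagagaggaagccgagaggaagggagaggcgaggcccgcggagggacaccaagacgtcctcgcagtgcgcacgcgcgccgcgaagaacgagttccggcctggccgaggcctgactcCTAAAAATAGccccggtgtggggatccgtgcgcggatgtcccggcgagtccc
In Hdac5 and Mef2a the 8-letter motif lies inside the longer one, so these are the same letters counted under both. In the second Hdac9 promoter the matches are separate, and the longer one, CTAGCTTTAG, holds a G and a C in its core. The longer motif is found in 3.69% of 32851 promoters of this length and the shorter in 2.72%. All 7 genes had an entry, with 13 promoters in all, and 3 of the 13 held each motif. A match describes letters in a window and no binding was measured.

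Hdac9 was lower in AAV-TAU nuclei in 10 of the 11 cell classes in which it was measured, by amounts that differed between classes. The CA1-like class, which chose Hdac9, is among these 10. In the 11 classes 28.0% (microglia-like) to 68.7% (CA2-like) of all measured genes had a log2 ratio below 0. Over all kept nuclei outside the CA1-like class Hdac9 stood at 334.7 CPM in AAV-TAU and 390.0 CPM in AAV-STOP, a ratio of 0.858 (0.845 to 0.872). Its log2 ratio there was -0.22, and 1.54% of 7584 measured genes had a lower one. The pooled value mixes classes whose shares of all kept nuclei differed between the libraries. Inhibitory neuron-like nuclei made up 9.13% in AAV-TAU and 10.8% in AAV-STOP, and oligodendrocyte-like nuclei 11.2% in AAV-TAU and 8.52% in AAV-STOP. Microglia-like nuclei, where Hdac9 was also high, made up 3.28% in AAV-TAU and 1.17% in AAV-STOP. Granule-like neurons made up 24.0% in AAV-TAU and 29.4% in AAV-STOP. Over the 11 classes in which Hdac9 was measured, CA1-like included, the median log2 ratio was -0.16. The part of class shares in the pooled value was not tested. In CA1-like neurons, the class Hdac9 was picked from, it stood at 315.8 CPM in AAV-TAU (4286 UMIs) and 381.3 CPM in AAV-STOP (6466 UMIs). That is a log2 ratio of -0.27, just past 1.2-fold. In that class 0.365% of 6846 measured genes were lower by over 1.2-fold, and nothing is read from this because the class chose the gene.

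Among the 12 compared classes the difference was widest in inhibitory neuron-like nuclei, which also had the highest Hdac9 level. There it stood at 515.0 CPM in AAV-TAU (5022 UMIs) and 652.2 CPM in AAV-STOP (8156 UMIs), a log2 ratio of -0.34 and a ratio of 0.790 (0.762 to 0.818). The background in this class was larger than in CA1, with 3.49% of 7541 genes lower by over 1.2-fold and 1.99% with a lower log2 ratio than Hdac9. Among the 210 genes of 500 kb or more measured there, to which Hdac9 belongs, 21.4% were lower by over 1.2-fold. Granule-like neurons of the dentate gyrus had 295.2 CPM in AAV-TAU and 330.8 CPM in AAV-STOP, a log2 ratio of -0.16. CA3-like neurons had 369.4 CPM in AAV-TAU and 411.6 CPM in AAV-STOP, a log2 ratio of -0.15. CA2-like neurons had 302.8 CPM in AAV-TAU and 351.9 CPM in AAV-STOP, a log2 ratio of -0.21. The intervals of the ratio lay below 1 in all 3 of these classes, but none passed 1.2-fold. The shares of all measured genes lower by that much were 0.311% in granule-like, 1.38% in CA3-like and 15.9% in CA2-like neurons. Mossy cell-like nuclei, 1 of the 3 named classes too small to be compared, had 503.6 CPM in AAV-TAU (78 nuclei) and 713.8 CPM in AAV-STOP (77 nuclei), a log2 ratio of -0.50 and a ratio of 0.705 (0.612 to 0.813). Fibroblast-like nuclei, also too small, had 199.0 CPM in AAV-TAU and 275.8 CPM in AAV-STOP, a ratio of 0.722 (0.470 to 1.09). Choroid plexus-like nuclei, the last of these, went the other way. They had 207.4 CPM in AAV-TAU (27 UMIs) and 162.9 CPM in AAV-STOP (16 UMIs), a ratio of 1.27 (0.662 to 2.53).

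The glial classes were also below 0, with less counting precision and, in microglia-like and oligodendrocyte precursor-like nuclei, a direction that changed with the settings. Microglia-like nuclei had 489.3 CPM of Hdac9 in AAV-TAU and 552.6 CPM in AAV-STOP, a ratio of 0.885 (0.767 to 1.02). Their log2 ratio was below 0 in 10 of 12 alternatives, but 0.15 in nuclei with 2000 or more UMIs and 0.08 with nuclei thinned to 2000 UMIs. Astrocyte-like nuclei had 197.5 CPM in AAV-TAU and 223.6 CPM in AAV-STOP, a ratio of 0.883 (0.767 to 1.02). Oligodendrocyte precursor-like nuclei had 175.4 CPM in AAV-TAU and 187.8 CPM in AAV-STOP, and oligodendrocyte-like nuclei 84.0 CPM in AAV-TAU and 90.8 CPM in AAV-STOP. The log2 ratio in the precursor-like nuclei was below 0 in 12 of 13 alternatives and 0.07 with marked doublets kept. A difference in any one of these 4 glial classes was not detectable at this depth, since each interval included 1. Among all classes Hdac9 was measured in 11 classes and lower in 10 of them, with the interval below 1 in 6. Both counts include the CA1-like class, which chose Hdac9. The exception among the 11 was the immature neuron-like class, with 360.8 CPM in AAV-TAU and 354.0 CPM in AAV-STOP. Its log2 ratio of 0.027 ran from -0.23 to 0.05 over the alternatives and was below 0 in 8 of 13. Cajal-Retzius-like nuclei, where Hdac9 had too few UMIs to count as measured, had 82.7 CPM in AAV-TAU (35 UMIs) and 69.1 CPM in AAV-STOP (22 UMIs).

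**Figure D1:**
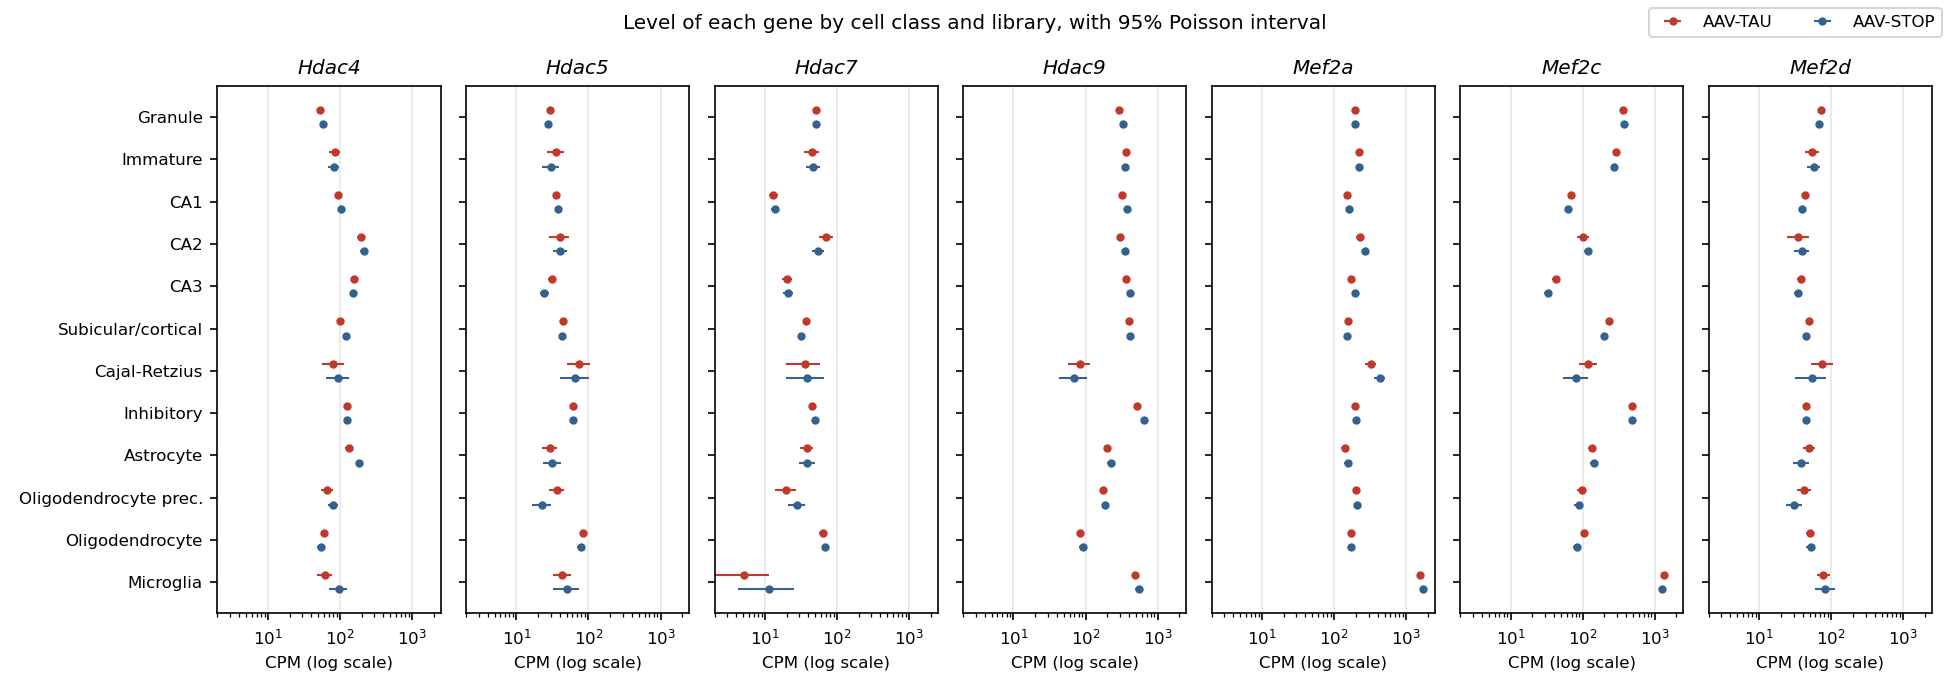
Level of each of the 7 genes in CPM (log axis) in 12 cell classes, AAV-TAU above AAV-STOP, with 95% Poisson intervals as bars. Hdac9 reaches 515.0 CPM in AAV-TAU and 652.2 CPM in AAV-STOP in inhibitory neuron-like nuclei, while Mef2a and Mef2c peak in microglia-like nuclei.

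The order of Hdac9 levels across the 12 classes was nearly the same in both libraries. Inhibitory neuron-like nuclei stood highest, then microglia-like, subicular or cortical and CA3-like nuclei, then the immature, CA1-like, CA2-like and granule-like neurons, and last the astrocyte-like, oligodendrocyte precursor-like, oligodendrocyte-like and Cajal-Retzius-like nuclei. Only CA1-like and immature neuron-like nuclei changed places between the libraries. Intervals of neighbours in this order were apart in 5 of 11 cases in each library. Inhibitory and microglia-like nuclei overlapped in AAV-TAU and were apart in AAV-STOP, and CA1-like, CA2-like and granule-like neurons overlapped with their neighbour in AAV-TAU. The highest class exceeded the lowest 6.23-fold in AAV-TAU and 9.43-fold in AAV-STOP, with Cajal-Retzius-like nuclei resting on only 35 AAV-TAU and 22 AAV-STOP UMIs.

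Within the CA1-like, subicular or cortical, and inhibitory classes, clusters differed more in Hdac9 level than the libraries did. The CA1-like class held a cluster with Stac and Ndst4 among its leading genes (cluster 4) and one with Pde11a and Cpne7 (cluster 5). Hdac9 stood at 406.5 CPM in AAV-TAU and 500.3 CPM in AAV-STOP in cluster 4, and at 216.9 CPM in AAV-TAU and 245.2 CPM in AAV-STOP in cluster 5. Both were lower in AAV-TAU, with log2 ratios of -0.30 and -0.17. In the subicular or cortical class the cluster led by Vwc2l and Tshz2 (cluster 20) had 1018 CPM in AAV-TAU and 1150 CPM in AAV-STOP, the highest of the 6 clusters of that class. That cluster made up more of the class in AAV-TAU, with 303 nuclei against 249 in AAV-STOP. The pooled log2 ratio of the class was -0.07, while all 6 clusters were below 0, between -0.42 and -0.03. Over the alternatives the class value ran from -0.25, the mean within finer clusters, to 0.08, in nuclei with at most 0.2% mitochondrial UMIs, and was below 0 in 11 of 13. Thinned to 2000 UMIs the class had 403.0 CPM in AAV-TAU and 395.9 CPM in AAV-STOP.

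The 4 inhibitory clusters gave a more even picture. Cluster 22, led by Erbb4, Grik1 and Nxph1, had 1252 CPM in AAV-TAU and 1554 CPM in AAV-STOP. Cluster 8, led by Erbb4, Nxph1 and Kcnmb2 and with Sox6 among its leading genes, had 200.7 CPM in AAV-TAU and 260.5 CPM in AAV-STOP. The remaining inhibitory clusters were 12, with 638.7 CPM in AAV-TAU and 788.2 CPM in AAV-STOP, and 11, with 540.7 CPM in AAV-TAU and 648.0 CPM in AAV-STOP. Despite a wide range of levels, the log2 ratios of the 4 clusters lay between -0.37 and -0.26. Over the 25 clusters outside CA1 in which it was measured, Hdac9 was lower in AAV-TAU in 24, with the interval below 1 in 15 and a median log2 ratio of -0.20. It was lower by over 1.2-fold in 9 of the 25, while 5.83% of all measured pairs of a gene and one of these clusters were. These clusters, like the classes, come from the same pair of libraries that Hdac9 was picked from, so they are not separate observations.

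**Figure D2:**
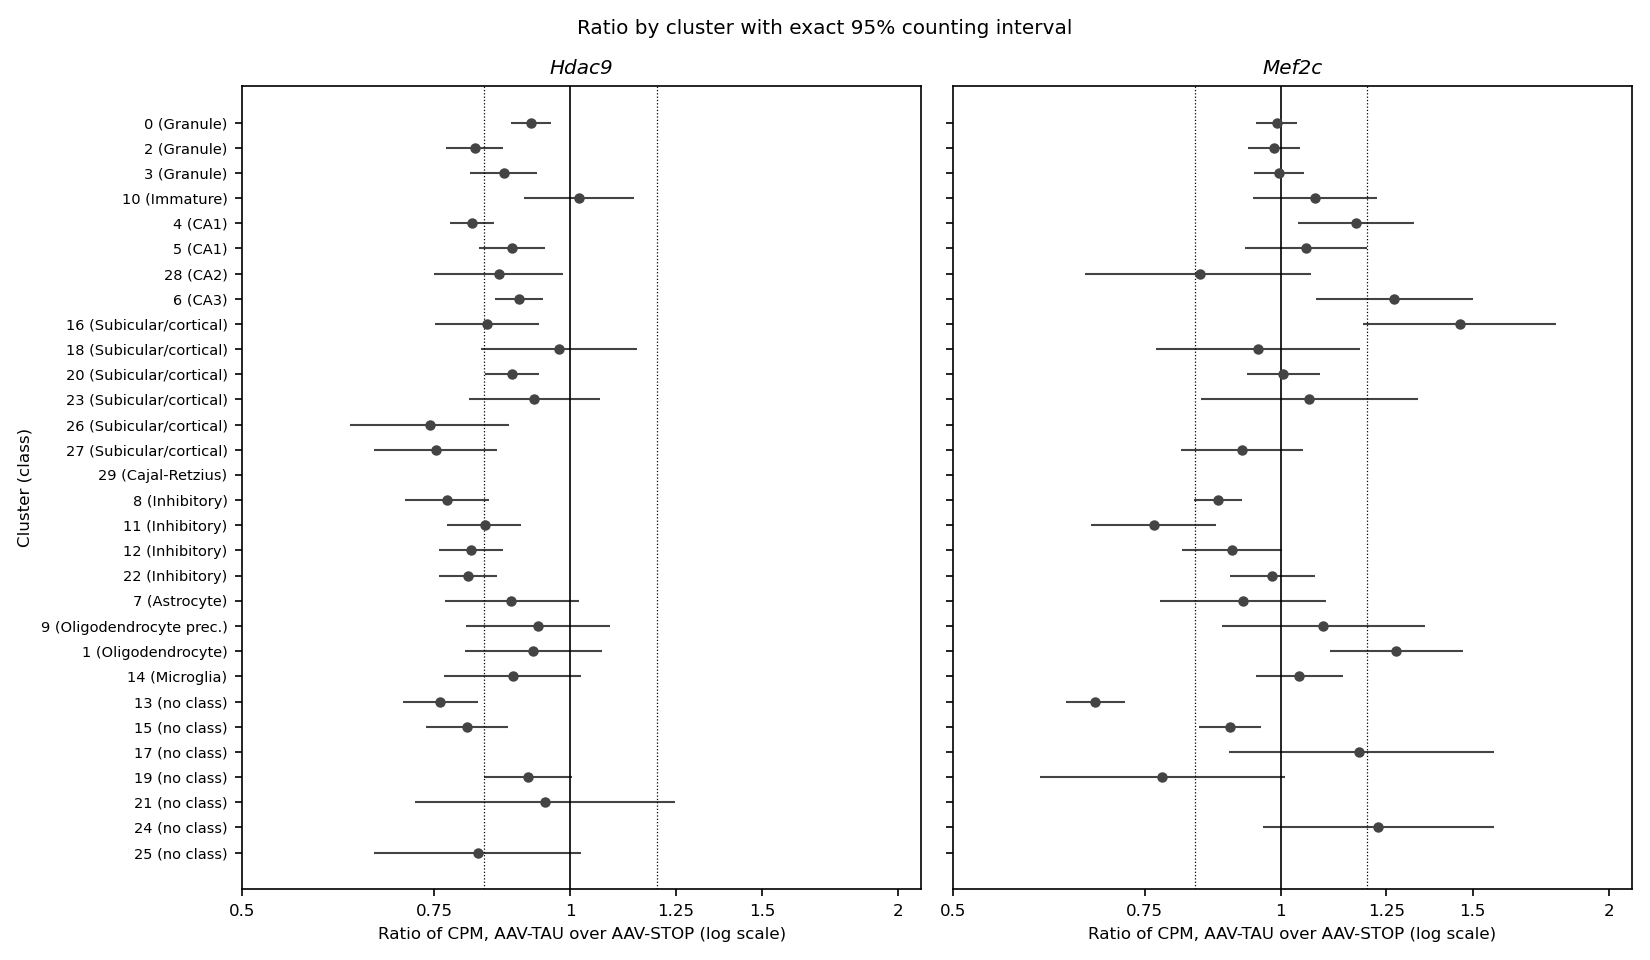
Ratio of CPM, AAV-TAU over AAV-STOP (log axis), of Hdac9 and Mef2c in each cluster where the gene was measured, with exact 95% counting intervals; the solid line marks 1 and dotted lines 1.2-fold. Hdac9 lies left of 1 in 26 of 27 clusters, the CA1-like ones that chose it among them, while Mef2c lies on both sides.

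Gene length and mitochondrial content also moved between the libraries, and Hdac9 is a very long gene. In CA1-like neurons the median log2 ratio was 0.27 for genes under 5 kb and -0.07 for genes of 500 kb or more, against 0.04 over all measured genes. In inhibitory neuron-like nuclei the long genes had a median of -0.11, and 28 of 210 (13.3%) lay below Hdac9. In granule-like neurons the median was -0.07, and 28 of 188 (14.9%) lay below it. Of the genes of that length, 57.8% lay below Hdac9 in astrocyte-like nuclei and 65.3% in microglia-like nuclei. Median mitochondrial shares were 0.212% in AAV-TAU and 0.118% in AAV-STOP in CA1-like neurons, and 0.333% in AAV-TAU and 0.197% in AAV-STOP in inhibitory neuron-like nuclei. Restricting both libraries to nuclei with at most 0.2% left log2 ratios of -0.24 in CA1-like and -0.28 in inhibitory neuron-like nuclei. The part of gene length in the result was not tested.

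**Figure D3:**
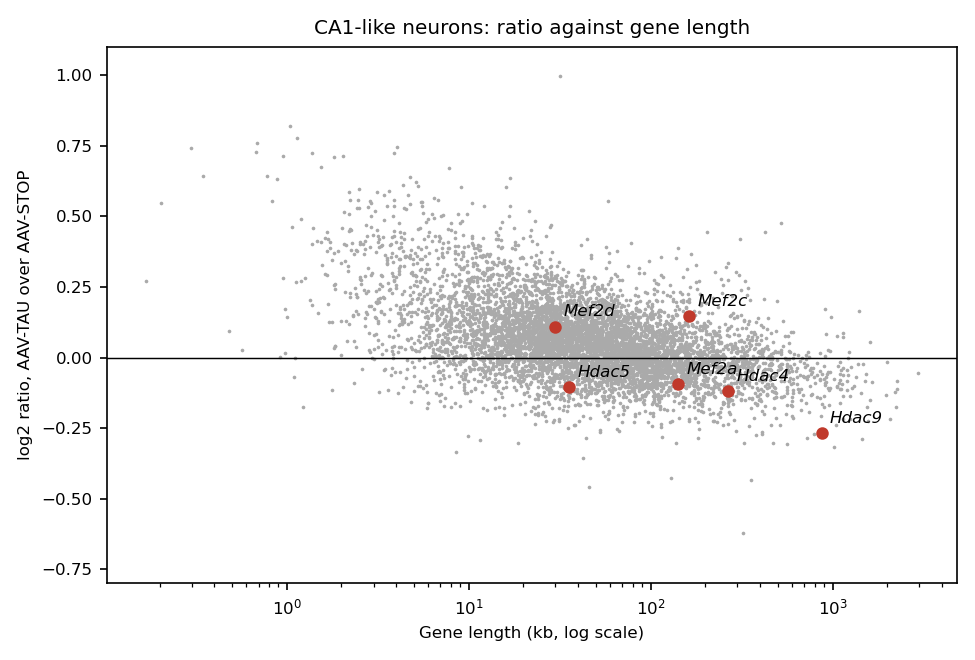
Log2 ratio of AAV-TAU over AAV-STOP against gene length in kb (log axis) for the measured genes of CA1-like neurons (grey) and the 6 members measured there (red). Short genes lie mostly above 0 and genes of 500 kb or more mostly below it; Hdac9, at 869.5 kb, has the value of -0.27 for which it was picked.

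Summed markers of oligodendrocytes were higher in AAV-TAU within the neuronal classes, by amounts that differed. Their summed level was 475 CPM in AAV-TAU and 437 CPM in AAV-STOP in CA1-like neurons (6 of 8 markers higher), and 547 CPM in AAV-TAU and 510 CPM in AAV-STOP in inhibitory neuron-like nuclei (7 of 8 higher), with none at 0. In CA3-like neurons the sum was 363.9 CPM in AAV-TAU and 297.5 CPM in AAV-STOP (8 of 8 higher). Granule-like neurons had 677 CPM in AAV-TAU and 595 CPM in AAV-STOP (8 of 8 higher). CA2-like neurons had 383 CPM in AAV-TAU and 359 CPM in AAV-STOP, with only 3 of 8 higher. Within inhibitory neuron-like nuclei other lists differed more than this one. Subicular or cortical markers summed to 143 CPM in AAV-TAU and 220 CPM in AAV-STOP (2 of 6 higher), CA3 markers to 444.2 CPM in AAV-TAU and 523 CPM in AAV-STOP (0 of 6 higher). Tshz2, a marker of the subicular or cortical list, was among the leading genes of a finer inhibitory cluster with 209 AAV-TAU and 542 AAV-STOP nuclei. Granule neuron markers summed to 378 CPM in AAV-TAU and 334 CPM in AAV-STOP (6 of 6 higher), and those of newly formed oligodendrocytes to 48.4 CPM in AAV-TAU and 69.4 CPM in AAV-STOP (1 of 6 higher). No marker of these lists was at 0. Their part in the result was not tested.

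Hdac4 (ENSMUSG00000026313, chr1:91928779-92195699, reverse strand, 266.9 kb), a class IIa deacetylase known as a brake on Mef2 in growing cartilage and on synaptic genes in neurons, differed most, among the classes in which it was measured, in astrocyte-like and in subicular or cortical nuclei. In astrocyte-like nuclei it stood at 133 CPM in AAV-TAU and 186 CPM in AAV-STOP, a log2 ratio of -0.47 and a ratio of 0.716 (0.608 to 0.843). That class was noisy, with 9.42% of 4312 genes lower by over 1.2-fold. In the subicular or cortical class Hdac4 stood at 99.9 CPM in AAV-TAU and 121 CPM in AAV-STOP, a log2 ratio of -0.26, where 1.71% of 7155 genes were lower by over 1.2-fold. All 6 clusters of that class were lower in AAV-TAU, 4 of them by over 1.2-fold where 6.19% of all measured pairs of a gene and a cluster were, and their log2 ratios ran from -0.63 to -0.13. In CA1-like neurons it had 94.5 CPM in AAV-TAU and 103 CPM in AAV-STOP, and in granule-like neurons 53.1 CPM in AAV-TAU and 57.3 CPM in AAV-STOP. In CA3-like and inhibitory neuron-like nuclei its intervals included 1. Levels were highest in CA2-like neurons, at 195.5 CPM in AAV-TAU and 213 CPM in AAV-STOP. Hdac4 was lower in 6 and higher in 4 of the 10 classes in which it was measured. Microglia-like nuclei, short of the 100 UMIs asked for, had 62.3 CPM in AAV-TAU (72 UMIs) and 96.3 CPM in AAV-STOP (50 UMIs), a ratio of 0.648 (0.445 to 0.948).

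Hdac5 (ENSMUSG00000008855, chr11:102194432-102230166, reverse strand, 35.7 kb), the family member best known in brain for responses to chronic stress and drugs, was measured in 6 classes. It passed 1.2-fold in CA3-like neurons, where it was higher, with 31.1 CPM in AAV-TAU (236 UMIs) and 24.5 CPM in AAV-STOP (193 UMIs). The log2 ratio was 0.29 with a ratio of 1.27 (1.05 to 1.55), and 9.24% of 6616 genes in this class were higher by over 1.2-fold. In CA1-like neurons Hdac5 had 35.0 CPM in AAV-TAU and 38.0 CPM in AAV-STOP, and the interval included 1. Its highest level was in oligodendrocyte-like nuclei, at 84.2 CPM in AAV-TAU and 77.6 CPM in AAV-STOP.

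Hdac7 (ENSMUSG00000022475, chr15:97792664-97844502, reverse strand, 51.8 kb), known mainly from thymocytes and blood vessel lining, was measured in 5 classes and passed 1.2-fold in none of them. Granule-like neurons had 51.2 CPM in AAV-TAU and 50.5 CPM in AAV-STOP. CA1-like neurons had 13.1 CPM in AAV-TAU and 13.7 CPM in AAV-STOP, too low to count as measured. CA3-like neurons were also low, with 20.3 CPM in AAV-TAU and 21.2 CPM in AAV-STOP. CA2-like neurons were higher than both, with 71.2 CPM in AAV-TAU (75 UMIs) and 54.6 CPM in AAV-STOP (100 UMIs). In the annotation Hdac7 overlaps Slc48a1 on the other strand.

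**Figure D4:**
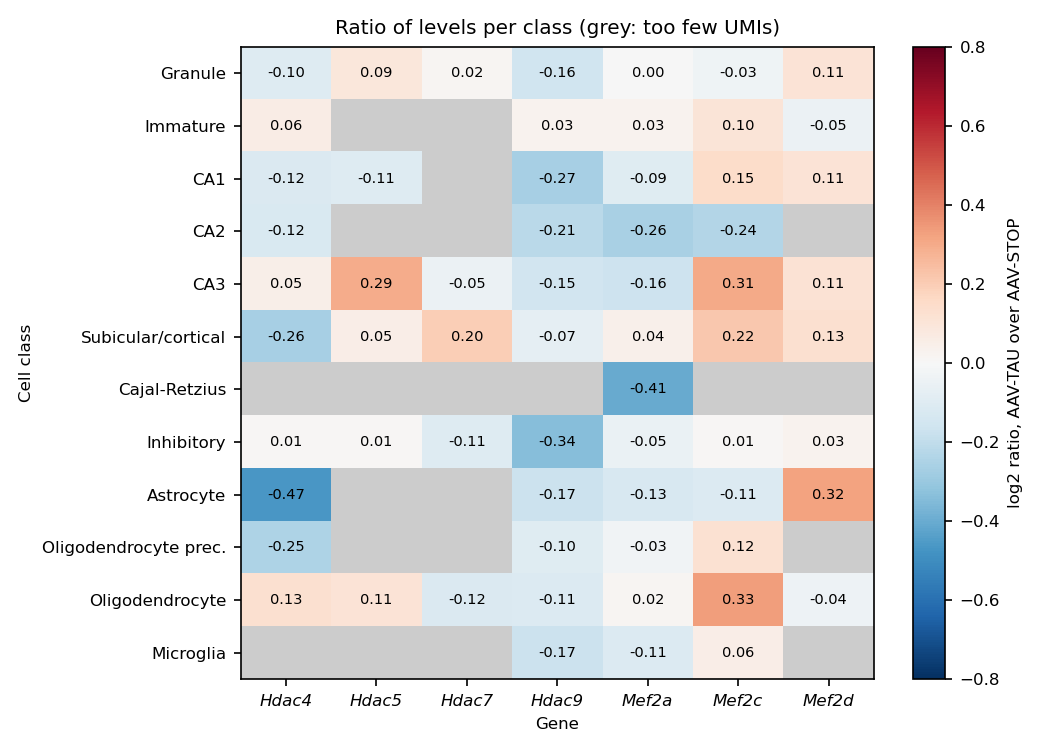
Log2 ratio of AAV-TAU over AAV-STOP for each gene (columns) in each class (rows), with grey cells where a gene was not measured. Hdac9 is negative in 10 of 11 classes, with the CA1-like class, which chose it, among the 10. Mef2c is positive in 8 of 11, and Mef2d in 6 of 8. Over the classes 28.0% (microglia-like) to 68.7% (CA2-like) of all measured genes were below 0.

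Mef2a (ENSMUSG00000030557, chr7:67231163-67372858, reverse strand, 141.7 kb), a Mef2 factor that restrains synapse number in neurons, was measured in all 12 classes. Its level was set mostly by cell type, with 1578 CPM in AAV-TAU and 1702 CPM in AAV-STOP in microglia-like nuclei. The next class, Cajal-Retzius-like nuclei, had 324 CPM in AAV-TAU and 431 CPM in AAV-STOP, from 137 UMIs in each library. That was the only class past 1.2-fold (log2 ratio -0.41), and 16.5% of the 504 genes measured there were lower by as much. CA3-like neurons had 173 CPM in AAV-TAU and 195 CPM in AAV-STOP, a ratio of 0.890 (0.826 to 0.959), and CA1-like neurons 151 CPM in AAV-TAU and 161 CPM in AAV-STOP. In granule-like neurons the levels were 197.0 CPM in AAV-TAU and 197.5 CPM in AAV-STOP, with a ratio of 0.997 (0.959 to 1.04).

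Mef2c (ENSMUSG00000005583, chr13:83504034-83667080, forward strand, 163.0 kb), a factor needed for the development of cortical excitatory and inhibitory neurons and prominent in microglia, had the widest range across classes of the 7 genes. Its highest class exceeded its lowest 31.3-fold in AAV-TAU and 38.3-fold in AAV-STOP. Microglia-like nuclei had 1328 CPM in AAV-TAU and 1277 CPM in AAV-STOP, and CA3-like neurons 42.4 CPM in AAV-TAU and 33.3 CPM in AAV-STOP. It was also the only member among the variable genes that shaped the clusters. In CA3-like neurons the log2 ratio was 0.31 (321 AAV-TAU and 263 AAV-STOP UMIs), which turned to -0.027 at a coarser clustering. In oligodendrocyte-like nuclei Mef2c stood at 105.7 CPM in AAV-TAU and 82.9 CPM in AAV-STOP, a log2 ratio of 0.33, in a class where 19.8% of 7070 genes were higher by over 1.2-fold. In granule-like neurons, where it was abundant, it had 361 CPM in AAV-TAU and 369 CPM in AAV-STOP, a ratio of 0.978 (0.950 to 1.01). Over the 11 classes in which Mef2c was measured, 28.0% (microglia-like) to 68.7% (CA2-like) of all measured genes were below 0. Mef2c was higher in 8 and lower in 3 of these classes, but lower in 14 and higher in 12 of 26 clusters. Its median log2 ratio over clusters was -0.009. Over all kept nuclei, whose class shares differed between the libraries, it had 269 CPM in AAV-TAU and 281 CPM in AAV-STOP, a ratio of 0.957 (0.941 to 0.973).

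In inhibitory neuron-like nuclei the pooled value of Mef2c hid lower values inside the clusters. Pooled levels were 490.5 CPM in AAV-TAU and 486 CPM in AAV-STOP, a log2 ratio of 0.012. All 4 clusters were below 0, with log2 ratios between -0.38 and -0.025. Cluster 8 had 657 CPM in AAV-TAU and 749 CPM in AAV-STOP, and cluster 11, led by Rmst and Ankfn1, 190.0 CPM in AAV-TAU and 248 CPM in AAV-STOP. Cluster 11 had the lowest Mef2c of the 4 and held 254 AAV-TAU nuclei and 620 AAV-STOP nuclei. Without it the log2 ratio of the class was -0.12, and the mean within finer clusters was -0.18, while Hdac9 stayed at -0.36 without it and at -0.30 within finer clusters.

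Mef2d (ENSMUSG00000001419, chr3:88142372-88172086, forward strand, 29.7 kb), the family member tied to neuronal survival, was measured in 8 classes and higher in 6. In these 8 classes 32.1% (granule-like) to 54.3% (immature neuron-like) of all measured genes were below 0. Granule-like neurons had 72.3 CPM of Mef2d in AAV-TAU and 66.7 CPM in AAV-STOP, a ratio of 1.08 (1.01 to 1.16). In astrocyte-like nuclei it had 49.0 CPM in AAV-TAU and 38.2 CPM in AAV-STOP, past 1.2-fold, where 20.9% of genes were higher by as much, and the interval of the ratio (0.932 to 1.78) included 1. It counted as measured there through AAV-TAU alone, with 112 UMIs in AAV-TAU and 61 in AAV-STOP. Mef2d had a log2 ratio of 0.11 in CA1-like and in granule-like neurons, where the medians of all measured genes were 0.04 and 0.05.

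Leaving out CA1-like neurons, which chose Hdac9, 4 of 57 measured pairs of a member and a class were lower and 4 higher by over 1.2-fold. Of 52719 measured pairs of any gene and a class there, 5.01% were lower and 12.6% higher by as much. The 4 lower pairs were Hdac9 in inhibitory neuron-like nuclei, Hdac4 in astrocyte-like and subicular or cortical nuclei, and Mef2a in Cajal-Retzius-like nuclei. The 4 higher pairs were Hdac5 and Mef2c in CA3-like neurons, Mef2c in oligodendrocyte-like nuclei and Mef2d in astrocyte-like nuclei. Of all 63 pairs, 2 counted as measured through 1 library only, and Mef2d in astrocyte-like nuclei was the 1 of them past 1.2-fold.

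The other genes of the pathway were read from lists of known partners. In CA1-like neurons 6 of the 7 deacetylases outside class IIa were measured, and none passed 1.2-fold in either direction (median log2 ratio 0.04). Hdac2, a class I deacetylase, had 51.1 CPM in AAV-TAU and 46.6 CPM in AAV-STOP there. All 6 genes of the corepressor complex were measured and none passed in CA1-like neurons. In granule-like neurons no gene of either list passed.

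Of 16 kinases that act on class IIa deacetylases, 11 were measured in CA1-like neurons, with 7.87% of all measured genes there higher by over 1.2-fold. Camk2g, a calcium and calmodulin-dependent kinase subunit, was the 1 kinase past it, with 44.0 CPM in AAV-TAU and 32.9 CPM in AAV-STOP. Camk1d, a kinase of the same superfamily, had 1502 CPM in AAV-TAU and 1300 CPM in AAV-STOP in CA1-like neurons. In granule-like neurons it had 1750 CPM in AAV-TAU and 1466 CPM in AAV-STOP. Sik3, a salt-inducible kinase, had 236 CPM in AAV-TAU and 272 CPM in AAV-STOP in CA1-like neurons. Of the 10 kinases measured in granule-like neurons 5 were lower and 5 higher, and none passed.

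The genes of the 14-3-3 proteins, which hold phosphorylated class IIa deacetylases in the cytoplasm, were all higher in AAV-TAU in CA1-like and in granule-like neurons. In CA1-like neurons 5 of 6 were higher by over 1.2-fold, with a median log2 ratio of 0.29 against 0.04 over all measured genes. Ywhah had 161 CPM in AAV-TAU and 114 CPM in AAV-STOP, a log2 ratio of 0.49, and Ywhab 141 CPM in AAV-TAU and 105 CPM in AAV-STOP. In granule-like neurons 4 of 6 passed, where 7.93% of 7071 genes did, and Ywhah had 206 CPM in AAV-TAU and 149.9 CPM in AAV-STOP. With counts scaled by the median of ratios, 2 of 6 passed in each of these classes, and the share of all genes passing on that scale is not given here. These 6 genes were higher in both classes under that scaling too, with medians of 0.24 and 0.25. All measured genes of this list were higher in 11 of the 12 classes. In those 11 classes 28.0% (microglia-like) to 54.3% (immature neuron-like) of all measured genes were below 0. Medians of the list were 0.50 in astrocyte-like, 0.53 in oligodendrocyte precursor-like and 0.55 in oligodendrocyte-like nuclei. Those of all measured genes were 0.05, 0.0004 and 0.05 in the same order. In CA2-like neurons 4 of the 5 measured were lower, where 68.7% of all measured genes were below 0. Of these genes of the list 2 were lower by over 1.2-fold, as were 15.9% of 2472 measured genes. Their median of -0.028 became 0.049 under median of ratios scaling, and the median of all genes was -0.07 before it.

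Kinases, phosphatase subunits and co-activators that act on Mef2 passed in neither class, with 7 of 8 measured in each. Cdk5, a kinase that inhibits Mef2 in neurons, had 37.5 CPM in AAV-TAU and 32.7 CPM in AAV-STOP in CA1-like neurons. Ppp3r1, the regulatory subunit of calcineurin, had 104.3 CPM in AAV-TAU and 90.1 CPM in AAV-STOP in granule-like neurons. Of 11 reported Mef2 target genes, 8 were measured in CA1-like neurons, and all 8 were above 0 without any passing 1.2-fold (median 0.11), where 35.0% of all measured genes were below 0. Under median of ratios scaling 3 of the 8 were below 0 and their median was 0.059. Among them Jun, an immediate early factor, had 21.0 CPM in AAV-TAU and 17.5 CPM in AAV-STOP.

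In granule-like neurons the targets lay on both sides, with 3 of 7 lower, 4 higher and none past 1.2-fold. There 32.1% of all measured genes were below 0. Under median of ratios scaling 5 of the 7 targets were below 0. Bdnf, a neurotrophin, had 73.5 CPM in AAV-TAU and 85.0 CPM in AAV-STOP, and Ppargc1a, a co-activator of mitochondrial genes, 36.1 CPM in AAV-TAU and 42.2 CPM in AAV-STOP. Jun had 50.5 CPM in AAV-TAU and 41.8 CPM in AAV-STOP in that class. Inhibitory neuron-like nuclei had 6 of 8 measured targets lower and a median of -0.13, where 39.1% of all measured genes were below 0. Picked after its values were seen, Homer1, a postsynaptic scaffold gene, had 79.8 CPM in AAV-TAU and 98.5 CPM in AAV-STOP there, past 1.2-fold lower. Jun, likewise picked, had 22.6 CPM in AAV-TAU and 14.6 CPM in AAV-STOP in the same class, past 1.2-fold higher. Of all genes measured in that class, 3.49% were lower and 9.03% higher by over 1.2-fold. Of 13 measured kinases of class IIa deacetylases there, 1 passed, Camk2d, which was lower (215 CPM in AAV-TAU and 309 CPM in AAV-STOP). Of 6 corepressor genes 1 passed, Gps2, which was higher, and 4 of 6 genes of 14-3-3 proteins were higher by as much. No measured gene passed among the other deacetylases or the kinases, phosphatase subunits and co-activators of Mef2. The target values of inhibitory neuron-like nuclei are pooled over the clusters of the class. Its cluster led by Rmst and Ankfn1 held 254 AAV-TAU nuclei and 620 AAV-STOP nuclei. The part of this cluster in the target values was not tested. Mef2b was not measured in any of these 3 classes.

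Across the 12 classes, with both libraries summed, the genes whose log2 levels were most like those of Hdac9 were Pitpnm1 (Pearson r 0.94), Erlin1 (0.93), Ola1 (0.92), Ankrd13d (0.92) and Rrp15 (0.89), out of 10261 genes ranked. The other members were less like it, with r of 0.46 for Mef2c, 0.34 for Hdac4, 0.14 for Mef2a, -0.10 for Mef2d, -0.33 for Hdac7 and -0.44 for Hdac5. These describe 12 classes that share 2 libraries and their depth, and carry no test.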

How the data were processed

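The deposited matrices hold UMI counts per gene and filtered barcode of 10x Genomics 3' libraries from nuclei. The authors mapped to mm10, per the submitters' processing notes, which name Cell Ranger 4.0 and Seurat 4.4.0, while the file headers name Cell Ranger 8.0.1. Whether reads in introns were counted is not given in the sources used here. Identifiers were matched to GENCODE vM21.

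The members, the pathway lists and the alternatives were chosen with earlier results of these data known. Nuclei with 500 UMIs, 300 genes and at most 5% mitochondrial UMIs were kept, which removed 2 AAV-TAU and 4 AAV-STOP barcodes. Doublets marked by scrublet per library (expected rate 0.15) were left out, 2285 AAV-TAU (11.7%) and 2465 AAV-STOP (12.2%). Python 3.11.15 with scanpy 1.11.5 and leidenalg 0.10.2 clustered the nuclei jointly (3000 variable genes, 30 components, 15 neighbours, resolution 1). Of 39 clusters 26 were named from markers: mean log2 level at least 1.6 over the median cluster, a lead of 0.3, 3 raised markers, and no excess of other markers among 10 leading genes. These thresholds, and leaving unnamed any cluster with 95% or more of its nuclei from 1 library, were set after seeing the data. Free RNA in droplets was not estimated.

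UMIs were summed per class and library. With 1 library per group no test was possible, so exact Poisson and exact conditional ratio intervals (95%) are given. The ratio and its interval were checked only on Poisson counts simulated from the summed CA1-like profile. That simulation held no clustering, naming or spread between nuclei or mice, so it says nothing about these. Cluster intervals and ratios use the same formulas. Leaving the CA1-like class out of counts over classes and clusters was decided after seeing the data. All 7 members were named in every class. Up to 3 genes per list with the largest absolute ratio qualified for naming in CA1-like and granule-like neurons, and not all are printed. The 5 genes most like Hdac9 by Pearson r were named, gene models aside. Promoters are RefSeq entries.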

Additional observations from a re-analysis of the deposited data

Results flagged for a closer look

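Mef2c differed in opposite directions between clusters, past 1.2-fold and with counting intervals that excluded 1 on both sides. It was lower in AAV-TAU in inhibitory cluster 11 (log2 ratio -0.38) and in cluster 13 (-0.56), which has no class and is led by Arhgap6 and Unc5d. In cluster 13 it stood at 583 CPM in AAV-TAU and 862 CPM in AAV-STOP, where 14% of measured genes were lower by over 1.2-fold. That share was 11.2% in cluster 11. Mef2c was higher in AAV-TAU in the oligodendrocyte-like cluster 1 (0.33), the CA3-like cluster 6 (0.31) and the subicular or cortical cluster 16 (0.50), where it stood at 72.6 CPM in AAV-TAU and 49.7 CPM in AAV-STOP. The shares of measured genes higher by over 1.2-fold were 19.8% in cluster 1, 9.24% in cluster 6 and 9.49% in cluster 16. At a coarser clustering the CA3-like value turned to -0.027. Mef2c was among the genes used to form the clusters. The difference between clusters was not tested.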

How the results depend on the processing

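Of 814 values of a member in a class under 14 alternatives, 785 stayed within the counting interval. A change of sign occurred in 74, in 28 of the 63 pairs of a member and a class. In 3 of the 74 the interval had excluded 1: Hdac9 in the subicular or cortical class (0.08 with at most 0.2% mitochondrial UMIs and 0.03 thinned) and Mef2c in CA3-like neurons, the 1 value past 1.2-fold that changed sign (-0.027 at resolution 0.5 in place of 0.31). Hdac9 in inhibitory neuron-like nuclei was past 1.2-fold under all 14 alternatives run for it (-0.38 to -0.28). In CA1-like neurons it was below 0 in all 13 and past 1.2-fold in 9 (-0.35 to -0.24), and with nuclei thinned to 2000 UMIs it was -0.35. With CA1-like neurons included, the 5 lower pairs became 3 with the members left out of the variable genes, 3 at a pseudocount of 20, 8 with a mean over nuclei and 2 with at most 0.2% mitochondrial UMIs. The 4 higher pairs became 1 with marked doublets kept, 1 at a pseudocount of 20, 2 under median of ratios scaling and 0 when thinned. The cause was not tested. The shift of that scaling exceeded 0.1 on the log2 scale only in microglia-like nuclei (0.12). Mean ratios within finer clusters, cluster 11 left out and shared barcodes left out were chosen after seeing the data. No paired analysis was possible because each group is 1 library. Depth limits small classes most, with 504 genes measured in Cajal-Retzius-like, 2039 in microglia-like and 2472 in CA2-like nuclei, against 7071 in granule-like neurons.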
